A study of Mus musculus with 12 samples.

Results

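The genes described here are 10 members of the Notch pathway, the 4 receptors Notch1, Notch2, Notch3 and Notch4, the 3 ligands Jag1, Jag2 and Dll4, and the 3 target genes Hes1, Hey1 and Heyl. They were chosen by name from the pathway, mapped to their Ensembl identifiers, and make up 10 of the 53715 genes in the count table. Their expression was measured by RNA sequencing in 3 groups of mouse liver cells with 4 replicates each. Hepatoblasts, the fetal progenitors of hepatocytes and bile duct cells, were enriched from E14.5 embryonic livers by magnetic separation for the surface protein Dlk1 and lysed directly, and each isolation pooled many embryos. Diff. hepatocytes came from such cells kept for 4 days on fibronectin-coated plates in a differentiation medium with serum, dexamethasone and Matrigel. Mature hepatocytes were isolated by collagenase perfusion of the livers of adult male mice aged 8 to 12 weeks and were lysed directly. All groups came from the strain C57BL/6JOlaHsd, and the labels name no transgene, deletion or inhibitor. The groups differ at once in age, in culture and in the way the cells were isolated, and these cannot be told apart.

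Notch receptors sit in the plasma membrane and are activated by ligands of the Jagged and Delta-like families on a neighbouring cell. Ligand binding exposes the receptor to cleavage by the protease ADAM10 and then by γ-secretase, and the released intracellular domain enters the nucleus, binds the DNA-binding protein RBPJ with a Mastermind coactivator, and turns on genes of the HES and HEY families of transcriptional repressors. In the developing liver, Jag1 from the portal mesenchyme and Notch2 on hepatoblasts are required for bile duct formation, and mutations of either human gene cause Alagille syndrome. Other members are best known from other cells of the liver, Dll4 and Notch4 from endothelium and Notch3 from mural and mesenchymal cells.

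The expression of 7 of the 10 genes could be set beside a promoter sequence, taken from RefSeq on the mouse assembly GRCm38.p6 and running from 250 bases before to 50 bases after the annotated start. The promoters of Notch2, Jag1 and Dll4 are shown because these genes gave the 3 patterns described below, a level that was called between no groups, a rise in culture and a fall in culture. They lie at chr3:98013288-98013587 on the plus strand, chr2:137116471-137116770 on the minus strand and chr2:119325534-119325833 on the plus strand, each printed 5′ to 3′ on the strand of its gene. Capitals mark the letters GGGCGG, the core bound by SP1, on either strand.
Notch2: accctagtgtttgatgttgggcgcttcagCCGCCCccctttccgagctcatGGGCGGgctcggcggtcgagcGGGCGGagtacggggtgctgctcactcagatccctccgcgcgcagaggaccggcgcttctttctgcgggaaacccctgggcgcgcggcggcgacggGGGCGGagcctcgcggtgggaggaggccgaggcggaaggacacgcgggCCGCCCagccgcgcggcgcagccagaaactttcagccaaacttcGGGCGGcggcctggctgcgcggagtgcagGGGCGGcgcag
Jag1: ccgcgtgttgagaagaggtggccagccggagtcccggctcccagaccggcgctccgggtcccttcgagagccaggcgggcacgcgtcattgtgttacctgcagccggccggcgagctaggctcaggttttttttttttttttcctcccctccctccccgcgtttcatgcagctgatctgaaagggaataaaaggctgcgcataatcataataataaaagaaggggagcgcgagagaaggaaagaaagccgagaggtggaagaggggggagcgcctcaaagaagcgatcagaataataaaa
Dll4: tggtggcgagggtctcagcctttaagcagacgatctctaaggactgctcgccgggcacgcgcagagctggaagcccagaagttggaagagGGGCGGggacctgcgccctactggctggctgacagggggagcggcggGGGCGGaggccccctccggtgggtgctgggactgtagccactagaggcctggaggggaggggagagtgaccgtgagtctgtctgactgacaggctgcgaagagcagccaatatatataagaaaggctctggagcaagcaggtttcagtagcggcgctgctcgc
The Notch2 promoter held 7 matches to GGGCGG, that of Dll4 held 2 and that of Jag1 held 0, and 35.7% of the 32851 promoters in the RefSeq table held at least 1. The G and C content was 73.0% for Notch2, 63.7% for Dll4 and 55.7% for Jag1. Matches to GGGCGG numbered 5 in Notch1, 4 in Notch3, 5 in Jag2 and 0 in Notch4. TGGGAA, the core of the RBPJ site, occurred on neither strand of the 7 promoters, against 25.6% of all promoters, which says only that these letters are not in these windows. No TATAAA was found in the 7 windows, and 13.6% of all promoters had one. GGAATG, the core of the TEAD site, was matched 2 times in Notch1, 1 time in Notch4 and in none of the other 5, and in 14.7% of all promoters. The letters of TGGGAA and GGAATG can overlap, and a match is a description of sequence and not of binding. Hes1, Hey1 and Heyl were named only.

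Sequencing placed between 19581551 and 25216977 reads per library on genes. Of the 53715 genes, 17779 had more than 10 counts in at least 1 library and were tested, and all 10 Notch genes were among them. Expression is given as CPM, the usual count of a gene relative to the size of its library, with library sizes scaled by the trimmed mean of M values (TMM). A gene was called when its Benjamini-Hochberg adjusted p in edgeR's quasi-likelihood test over the 12 libraries was under 0.01 and its log2 fold change was over 1 in size. Library totals in place of TMM shift the median gene by -0.32 between Diff. hepatocytes and hepatoblasts, by -0.85 between mature hepatocytes and hepatoblasts and by 0.53 between Diff. and mature hepatocytes, on the log2 scale. Of 8 hepatocyte markers, 5 were higher in Diff. hepatocytes and 8 in mature hepatocytes than in hepatoblasts, and both Dlk1 and Afp were lower. Markers of other cells were detected too. The summed level of 7 erythroid markers ranged from 139.6 to 1217 CPM in hepatoblasts, and that of 8 macrophage markers from 62.6 to 260.1 CPM, both highest in hepatoblast replicate 1, which therefore stood apart from the other 3. In bulk RNA of this kind, fewer cells of a type and less RNA per cell cannot be told apart.

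The 3 target genes fell together in both kinds of hepatocyte, while most receptors and ligands did not. Against hepatoblasts, 5 of the 10 genes were called in Diff. hepatocytes, Jag1 as higher and Dll4, Hes1, Hey1 and Heyl as lower, where 28.9% of all tested genes were called, 14.9% as higher and 14.0% as lower. On the log2 scale the 10 genes had a median fold change of -0.86 and all tested genes one of -0.01. In mature hepatocytes 5 of 10 were called against hepatoblasts, all of them lower (Notch3, Jag2, Hes1, Hey1 and Heyl), where 44.8% of all tested genes were called, 20.1% as higher and 24.7% as lower. The medians were -1.18 for the 10 genes and -0.15 for all tested genes. Between Diff. and mature hepatocytes 7 of 10 were called, 2 higher and 5 lower in Diff. hepatocytes, where 35.8% of all tested genes were called, 20.2% higher and 15.6% lower. Here the medians were -0.44 and 0.09. With library totals in place of TMM the calls were 1 higher and 5 lower in the first comparison, 0 and 5 in the second, and 3 and 2 in the third. At that setting 5606, 9927 and 7276 of all 17779 tested genes were called in either direction in these comparisons. The comparisons of Diff. and of mature hepatocytes with hepatoblasts share the 4 hepatoblast libraries.

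**Figure D1:**
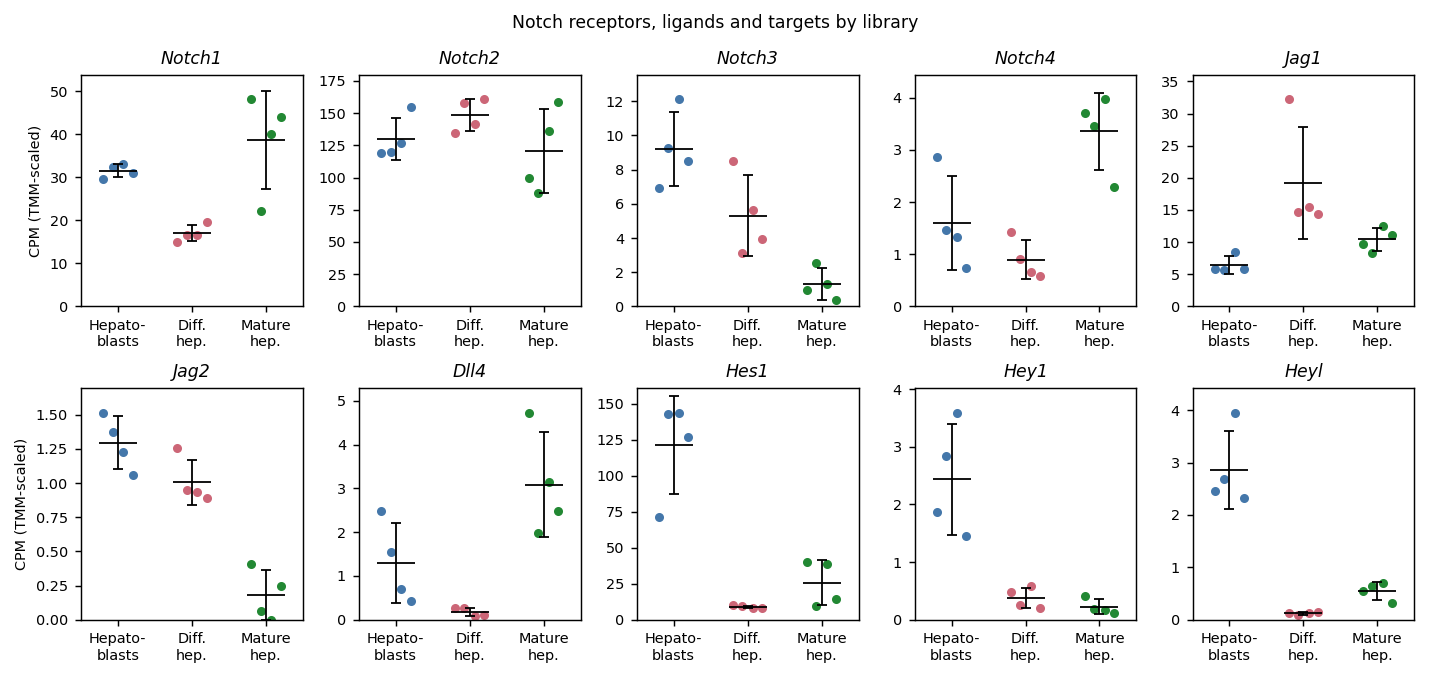
Expression of the 10 Notch genes in each library, with CPM scaled by TMM on a linear axis from 0 and the 3 groups on the horizontal axis. Points are libraries and the bars show the mean ± SD of 4 libraries. Hes1, Hey1 and Heyl are highest in hepatoblasts, Jag1 is highest in Diff. hepatocytes, and Dll4 is lowest there.

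Notch2 (ENSMUSG00000027878, chromosome 3, 98013527 to 98150361, plus strand, GRCm38) was the most abundant receptor. In hepatoblasts Notch2 stood at 119.3, 120.0, 126.5 and 154.4 CPM in replicates 1 to 4. Diff. hepatocytes had 134.9, 157.9, 141.3 and 160.7 CPM of Notch2. Mature hepatocytes had 99.5, 87.9, 135.8 and 158.6 CPM. The libraries of the 3 groups overlap, and the mature group alone covers nearly the whole range of the other two. The log2 fold change of Notch2 was 0.19 ± 0.16 (SE) in Diff. hepatocytes against hepatoblasts, with an edgeR adjusted p of 0.326, and with library totals it was -0.125. In mature hepatocytes it was -0.11 ± 0.16 against hepatoblasts, with an edgeR adjusted p of 0.558, and 0.01 without mature replicate 2. Diff. hepatocytes differed from mature hepatocytes by 0.30 ± 0.16 on the log2 scale (edgeR adjusted p = 0.12). With library totals these last 2 values of Notch2 were -0.97 (edgeR adjusted p = 3.48e-05) and 0.84 (edgeR adjusted p = 0.000165), each under the fold required for a call.

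Notch1 (ENSMUSG00000026923, chromosome 2, 26457903 to 26516663, minus strand), a receptor used in many tissues and in endothelium and blood cells as well, was lower in Diff. hepatocytes. It stood at 29.6, 32.5, 33.1 and 31.1 CPM in hepatoblasts. In Diff. hepatocytes Notch1 stood at 15.1, 16.6, 16.7 and 19.5 CPM. Mature hepatocytes held 48.1, 22.2, 39.98 and 44.1 CPM of Notch1, with replicate 2 far under the other 3. The Diff. libraries lie below all libraries of both other groups, which overlap each other. Against hepatoblasts, Notch1 in Diff. hepatocytes had a log2 fold change of -0.90 ± 0.18 (edgeR adjusted p = 0.000906), which is short of the fold required for a call and reaches -1.22 and a call with library totals. Against mature hepatocytes the log2 fold change of Notch1 was -1.19 ± 0.19 (edgeR adjusted p = 8.32e-05), a call that is lost with library totals, where it was -0.64, and with glmTreat, edgeR's test against a fold change over 2 (adjusted p = 0.166). Between mature hepatocytes and hepatoblasts Notch1 differed by 0.29 ± 0.18 on the log2 scale (edgeR adjusted p = 0.166), and with library totals by -0.58.

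Notch3 (ENSMUSG00000038146, chromosome 17, 32120820 to 32166852, minus strand), a receptor best known from pericytes and other mural cells, was lowest in mature hepatocytes. Hepatoblasts had 6.90, 9.29, 12.1 and 8.48 CPM of Notch3. Diff. hepatocytes had 8.52, 3.14, 5.64 and 3.94 CPM, with replicate 1 within the hepatoblast range and the other 3 below it. Mature hepatocytes had 0.960, 2.57, 1.28 and 0.373 CPM, from 14, 40, 22 and 6 reads, below every library of the other groups. The log2 fold change of Notch3 in mature hepatocytes against hepatoblasts was -2.82 ± 0.45, a 7.08-fold lower level (edgeR adjusted p = 6.93e-05). Diff. hepatocytes exceeded mature hepatocytes by 2.03 ± 0.45 on the log2 scale (edgeR adjusted p = 0.00127), a call lost with glmTreat (adjusted p = 0.0187). Between Diff. hepatocytes and hepatoblasts the value was -0.79 ± 0.39 (edgeR adjusted p = 0.0981). Mesenchymal markers were lowest in mature hepatocytes as Notch3 was. In Diff. hepatocytes against hepatoblasts 3 of 10 were called as higher and 1, Reln, as lower, while Notch3 was not called. The summed level of 10 of them, collagens, Pdgfra, Pdgfrb, Des, Reln and others, ranged from 1281 to 2317 CPM in hepatoblasts, from 1349 to 3037 CPM in Diff. and from 65.2 to 93.1 CPM in mature hepatocytes. None of the 10 mesenchymal markers was at 0 in any library, and 9 of 10 were lower in mature hepatocytes than in hepatoblasts. Their part in the result was not tested. Per 1000 mesenchymal marker counts, Notch3 had a mean of 5.14 in hepatoblasts, 2.60 in Diff. and 18.1 in mature hepatocytes, where it ran from 4.64 to 39.4. Different genes led the marker sum in the groups, Reln in hepatoblasts, Col1a1 in Diff. and Dcn in mature hepatocytes. The ratio is therefore no level per mesenchymal cell.

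Notch4 (ENSMUSG00000015468, chromosome 17, 34564268 to 34588503, plus strand), an endothelial receptor, was the least abundant receptor per kilobase in hepatoblasts and in Diff. hepatocytes. In hepatoblasts it stood at 2.87, 1.46, 1.33 and 0.729 CPM, from 89, 49, 41 and 22 reads. The values in Diff. hepatocytes were 1.43, 0.904, 0.666 and 0.592 CPM, from 33, 21, 15 and 12 reads. Notch4 in mature hepatocytes stood at 3.70, 3.47, 3.97 and 2.30 CPM. Hepatoblast replicate 1 lies inside the mature range, and the other 3 hepatoblast libraries overlap the Diff. libraries. Notch4 was lower in Diff. than in mature hepatocytes at a log2 fold change of -1.89 ± 0.40 (edgeR adjusted p = 0.00101), and with library totals the value of -1.37 was no longer called, nor was it with glmTreat (adjusted p = 0.0213). In mature hepatocytes against hepatoblasts the log2 fold change was 1.07 ± 0.38 and was not called (edgeR adjusted p = 0.0216). Without hepatoblast replicate 1 it became 1.504 and was called (edgeR adjusted p = 0.00132), and with library totals it was 0.19 (edgeR adjusted p = 0.679). In Diff. hepatocytes against hepatoblasts it was -0.82 ± 0.40 (edgeR adjusted p = 0.0905) and -0.37 without hepatoblast replicate 1.

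**Figure D2:**
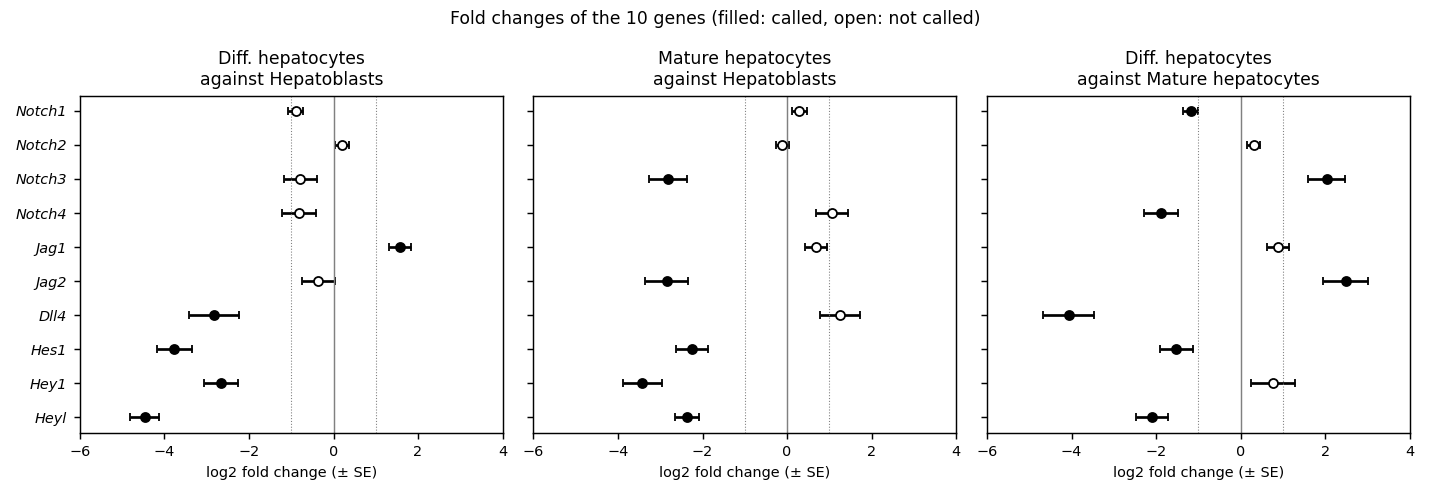
Log2 fold change of the 10 Notch genes in the 3 comparisons, with bars of ± 1 SE from edgeR's fit and filled points for called genes. Hes1, Hey1 and Heyl lie left of -1 in both comparisons with hepatoblasts, and the fold change of Notch2 is at most 0.30 in size in all 3 panels.

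Among the ligands, Jag1 (ENSMUSG00000027276, chromosome 2, 137081456 to 137116644, minus strand) was the one gene of the 10 called as higher in Diff. hepatocytes than in hepatoblasts. Hepatoblasts had 5.87, 5.70, 8.48 and 5.80 CPM of Jag1. Diff. hepatocytes had 32.2, 14.7, 15.5 and 14.45 CPM, and mature hepatocytes had 9.74, 8.28, 12.6 and 11.2 CPM. All 4 Diff. libraries lie above all libraries of both other groups, and replicate 1 is far above its own group. The rise over hepatoblasts was 2.97-fold, a log2 fold change of 1.57 ± 0.26 (edgeR adjusted p = 0.000158), and without Diff. replicate 1 it was 1.21 (edgeR adjusted p = 7.41e-05). When the test itself required a fold change over 2 in place of the threshold applied afterwards (edgeR's glmTreat), Jag1 was not called (adjusted p = 0.0268). Over mature hepatocytes the log2 fold change was 0.88 ± 0.26 (edgeR adjusted p = 0.00846), under the fold required for a call, 0.51 without Diff. replicate 1, and 1.42 and called with library totals (edgeR adjusted p = 0.000315). Mature hepatocytes differed from hepatoblasts in Jag1 by 0.69 ± 0.26 on the log2 scale (edgeR adjusted p = 0.0282), and by -0.16 with library totals.

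Bile duct markers were highest in the same libraries as Jag1. The summed level of 8 bile duct markers was 27.3 to 35.7 CPM in hepatoblasts, 92.8 to 232.6 CPM in Diff. and 37.4 to 66.0 CPM in mature hepatocytes. Its highest value belongs to Diff. replicate 1, the library with the most Jag1. Of the 7 tested bile duct markers, Krt7, Krt19 and Epcam were called as higher in Diff. hepatocytes than in hepatoblasts, while Sox9 and Spp1 were not called. Cftr had 0 or 1 reads in each Diff. library. Per 1000 bile duct marker counts there were 200.9 ± 31.2 Jag1 counts (SD, n = 4) in hepatoblasts, 142.4 ± 11.6 in Diff. and 206.7 ± 76.5 in mature hepatocytes. Mesenchymal markers were also highest in Diff. replicate 1, at 3037 CPM. By the paper's account, the Dlk1-enriched cells of this embryonic stage included some positive for Sox9. The part of bile duct and mesenchymal cells in the rise of Jag1 was not tested.

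Dll4 (ENSMUSG00000027314, chromosome 2, 119325784 to 119335962, plus strand), the Delta-like ligand of arterial and sinusoidal endothelium, went the other way. It was counted in 77, 52, 22 and 13 reads in the 4 hepatoblast libraries, or 2.48, 1.55, 0.712 and 0.431 CPM. Diff. hepatocytes had 6, 6, 2 and 2 reads, or 0.259, 0.258, 0.0888 and 0.0986 CPM. Mature hepatocytes had 69, 31, 54 and 40 reads, or 4.73, 1.99, 3.15 and 2.48 CPM. The Diff. libraries lie under all others, and the highest hepatoblast library falls within the mature range. Summed over libraries, Dll4 had 16 reads in Diff. hepatocytes and 164 in hepatoblasts, a level 7.28-fold lower after scaling (95% counting interval 4.35 to 13.0), and the log2 fold change was -2.82 ± 0.60 (edgeR adjusted p = 0.00112). Against mature hepatocytes Dll4 was 17.0-fold lower in Diff. hepatocytes (95% counting interval 10.2 to 30.4), with a log2 fold change of -4.07 ± 0.59 (edgeR adjusted p = 4.55e-05). In mature hepatocytes against hepatoblasts the log2 fold change of 1.25 ± 0.47 was not called (edgeR adjusted p = 0.0296), and without hepatoblast replicate 1 it was 1.75 and called (edgeR adjusted p = 0.00284). With library totals it was 0.34 (edgeR adjusted p = 0.532).

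The sum of the endothelial markers followed the order of Dll4, but not every marker did. Lyve1 and Egfl7 had lower means in mature hepatocytes (4.10 and 12.3 CPM) than in hepatoblasts (9.34 and 18.2 CPM). The summed level of 10 endothelial markers, among them Kdr, Cdh5, Stab2 and Pecam1, ranged from 52.9 to 161.2 CPM in hepatoblasts, from 9.02 to 17.1 CPM in Diff. and from 125.5 to 228.9 CPM in mature hepatocytes. None of the 10 was at 0 in any library, and replicate 1 was the highest of the hepatoblast libraries in this sum as in Dll4 and in Notch4. Called as lower in Diff. hepatocytes were 8 of 10 against hepatoblasts and 10 of 10 against mature hepatocytes, and 3 of 10 were called as higher in mature hepatocytes than in hepatoblasts. Per 1000 endothelial marker counts, Dll4 had 13.6 ± 4.55 counts in hepatoblasts (SD, n = 4), 13.4 ± 5.80 in Diff. hepatocytes and 16.6 ± 3.5 in mature hepatocytes. So the ratio of Dll4 to these markers overlapped between the 3 groups while Dll4 itself changed 17.0-fold. Notch4 had 18.0 ± 3.63 counts per 1000 endothelial marker counts in hepatoblasts and 19.0 ± 5.93 in mature hepatocytes, whose ranges overlap. In Diff. hepatocytes Notch4 had 71.9 ± 30.5 per 1000, from 46.9 to 114.2, above every library of the other groups. The part of endothelial cells in these results was not tested.

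**Figure D3:**
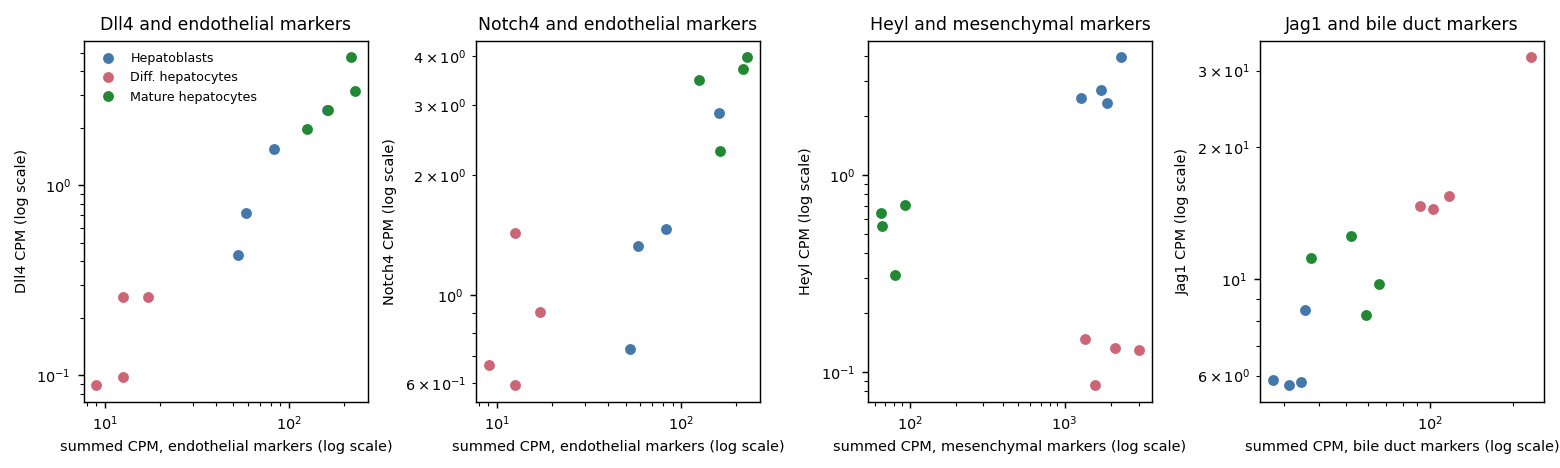
CPM of Dll4, Notch4, Heyl and Jag1 in each of the 12 libraries against the summed CPM of a marker list, both on log axes, with colours for the 3 groups. Dll4 rises with the sum of the 10 endothelial markers across all groups. The 4 Diff. libraries overlap hepatoblasts in the mesenchymal marker sum and have the least Heyl.

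Jag2 (ENSMUSG00000002799, chromosome 12, 112907819 to 112929776, minus strand), the second Jagged ligand, was low in every library. Hepatoblasts had 47, 46, 38 and 32 reads of Jag2, or 1.52, 1.37, 1.23 and 1.06 CPM. Diff. hepatocytes had 29, 22, 21 and 18 reads, or 1.25, 0.947, 0.933 and 0.888 CPM. Mature hepatocytes had 6, 1, 0 and 4 reads, of which the 0 allows up to 3 reads in that library. The mature libraries are below all others, and Diff. hepatocytes overlap hepatoblasts through replicate 1. Jag2 was 7.48-fold lower in mature hepatocytes than in hepatoblasts (95% counting interval 4.07 to 15.3), with a log2 fold change of -2.85 ± 0.51 (edgeR adjusted p = 0.000223). Diff. hepatocytes stood 5.82-fold above mature hepatocytes (95% counting interval 3.10 to 12.1), a log2 fold change of 2.49 ± 0.53 (edgeR adjusted p = 0.00101). Against hepatoblasts Jag2 in Diff. hepatocytes differed by -0.36 ± 0.39 on the log2 scale (edgeR adjusted p = 0.448).

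Hes1 (ENSMUSG00000022528, chromosome 16, 30064384 to 30067796, plus strand), a repressor of the basic helix-loop-helix class and the most widely used readout of Notch activity, was the most abundant of the 10 genes per kilobase in hepatoblasts. It measured 71.7, 143.0, 143.8 and 126.8 CPM there. In Diff. hepatocytes Hes1 measured 9.99, 9.21, 8.17 and 8.23 CPM. In mature hepatocytes it measured 39.8, 9.63, 38.4 and 14.53 CPM. The lowest hepatoblast library, replicate 1, is above the highest library of both other groups. The mature libraries split into a high and a low pair, and mature replicate 2 lies below Diff. replicate 1. Hes1 was 13.6-fold lower in Diff. hepatocytes than in hepatoblasts, a log2 fold change of -3.77 ± 0.41 (edgeR adjusted p = 4.04e-06), and 4.74-fold lower in mature hepatocytes, a log2 fold change of -2.25 ± 0.38 (edgeR adjusted p = 0.000129). Between Diff. and mature hepatocytes the log2 fold change of -1.52 ± 0.39 was called (edgeR adjusted p = 0.00376), but the libraries overlap and the two-sided exact permutation test gave p = 0.0571. That call is lost without Diff. replicate 3 (-1.48), Diff. replicate 4 (-1.49), mature replicate 1 (-1.24) or mature replicate 3 (-1.26), with library totals (-0.99), and with glmTreat (adjusted p = 0.0992).

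Heyl (ENSMUSG00000032744, chromosome 4, 123233556 to 123249875, plus strand), a target known from smooth muscle and mesenchymal cells, had the largest fall of the 10 genes in culture. It was counted in 76, 90, 122 and 70 reads in hepatoblasts, or 2.45, 2.69, 3.95 and 2.32 CPM. Diff. hepatocytes had 3, 2, 3 and 3 reads, or 0.130, 0.0861, 0.133 and 0.148 CPM. Mature hepatocytes had 8, 10, 12 and 5 reads, or 0.549, 0.642, 0.700 and 0.310 CPM. No libraries overlap between any groups, and the order is hepatoblasts, mature hepatocytes, Diff. hepatocytes. From 11 reads against 358, Heyl was 23.1-fold lower in Diff. hepatocytes than in hepatoblasts (95% counting interval 12.8 to 46.7), with a log2 fold change of -4.47 ± 0.34 (edgeR adjusted p = 1.32e-07). In mature hepatocytes it was 5.17-fold lower than in hepatoblasts (95% counting interval 3.64 to 7.53) and the log2 fold change was -2.36 ± 0.29 (edgeR adjusted p = 5.81e-06). Diff. hepatocytes were 4.47-fold below mature hepatocytes (95% counting interval 2.22 to 9.76), at a log2 fold change of -2.11 ± 0.38 (edgeR adjusted p = 0.000271). The mesenchymal markers did not fall with Heyl in culture, where 3 of 10 were called as higher and 1, Reln, as lower. Per 1000 mesenchymal marker counts there were 1.61 ± 0.28 Heyl counts in hepatoblasts, 0.0677 ± 0.029 in Diff. and 7.37 ± 2.53 in mature hepatocytes. Different genes led this sum, so the ratio is no level per mesenchymal cell. They were Reln in hepatoblasts (864.2 CPM), Col1a1 in Diff. (694.5 CPM) and Dcn in mature hepatocytes (31.4 CPM).

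Hey1 (ENSMUSG00000040289, chromosome 3, 8663359 to 8667256, minus strand), a target used in endothelium among other tissues, was low in both kinds of hepatocyte. Hepatoblasts had 58, 95, 111 and 44 reads of Hey1, or 1.87, 2.84, 3.59 and 1.46 CPM. Diff. hepatocytes had 11, 6, 13 and 4 reads, or 0.476, 0.258, 0.578 and 0.197 CPM. Mature hepatocytes had 6, 3, 3 and 2 reads, or 0.411, 0.193, 0.175 and 0.124 CPM. All hepatoblast libraries are above all libraries of the other groups, which overlap each other. The level in Diff. hepatocytes was 6.43-fold lower than in hepatoblasts (95% counting interval 4.50 to 9.46), a log2 fold change of -2.67 ± 0.40 (edgeR adjusted p = 7.85e-05). In mature hepatocytes, with 14 reads against 308, it was 11.1-fold lower (95% counting interval 6.52 to 20.6), a log2 fold change of -3.43 ± 0.46 (edgeR adjusted p = 1.42e-05). Diff. and mature hepatocytes differed by 0.76 ± 0.52 on the log2 scale (edgeR adjusted p = 0.217). Hey1 did not follow the sum of the endothelial markers into mature hepatocytes. It had 33.7 ± 20.7 counts per 1000 endothelial marker counts in hepatoblasts (SD, n = 4), 33.2 ± 23.2 in Diff. and 1.24 ± 0.57 in mature hepatocytes. The ratio ran widely, from 11.6 to 61.3 in hepatoblasts and from 15.1 to 64.0 in Diff. hepatocytes. As for Dll4, it is no level per endothelial cell.

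The genes were ordered by level after division by the exon length of each gene, as CPM per kilobase. In hepatoblasts Hes1 led at 59.6 ± 16.7 (SD, n = 4), followed by Notch2 at 12.1 ± 1.54 and Notch1 at 2.22 ± 0.11, with no overlap between the libraries of these neighbours. Below them, Notch3 at 1.14, Jag1 at 1.11, Hey1 at 0.747, Heyl at 0.558, Dll4 at 0.336, Notch4 at 0.198 and Jag2 at 0.186 CPM per kilobase overlapped, each with the next. In Diff. hepatocytes Notch2 took the first place at 13.8 ± 1.17, above Hes1 at 4.37 ± 0.43 and Jag1 at 3.30 ± 1.49, whose libraries overlap. Then came Notch1 at 1.19, Notch3 at 0.657, Jag2 at 0.144, Hey1 at 0.116, Notch4 at 0.111, Dll4 at 0.0458 and Heyl at 0.0243 CPM per kilobase, of which Jag2, Hey1 and Notch4 overlapped, each with the next, as did Dll4 and Heyl. In mature hepatocytes Hes1 at 12.6 ± 7.72 and Notch2 at 11.2 ± 3.03 overlapped at the top. Notch1 at 2.71 and Jag1 at 1.79 overlapped as well, and Dll4 at 0.802, Notch4 at 0.417, Notch3 at 0.160, Heyl at 0.108, Hey1 at 0.0692 and Jag2 at 0.0260 CPM per kilobase closed the order, with no overlap of Dll4 and Notch4 and with overlap of each later gene with the next. Exon lengths are unions over all annotated transcripts, and the transcripts actually made were not determined, so these levels depend on the annotation.

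How the receptors and the ligands divided among themselves was expressed as shares of the summed counts per kilobase, a measure that does not depend on the scaling of the libraries. Notch2 made up 77.1% ± 2.90 (SD, n = 4) of receptor counts in hepatoblasts, 87.5% ± 2.26 in Diff. and 76.9% ± 4.80 in mature hepatocytes. The share of Notch1 was 14.3% ± 1.34 in hepatoblasts, 7.56% ± 0.50 in Diff. and 18.8% ± 4.71 in mature hepatocytes. Notch3 held 7.30%, 4.26% and 1.29%, and Notch4 held 1.32%, 0.717% and 3.06%, in the same order. The shares of Notch1 and Notch2 in Diff. hepatocytes did not overlap those of either other group (exact permutation test, two-sided p = 0.0286, the smallest that 4 against 4 libraries allow). After Benjamini-Hochberg adjustment over the 12 receptor comparisons this became 0.0571 for the exact permutation test, so no receptor share passed 0.05. A share without overlap could not go lower unless more of the 12 tests had also reached the smallest p. The adjusted values of receptor and ligand shares are therefore not to be set against each other.

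The ligand shares cover Jag1, Jag2 and Dll4 and leave out Dll1, whose CPM is given further on. Dll1 had means of 1.58, 0.917 and 0.979 CPM per kilobase in hepatoblasts, Diff. and mature hepatocytes. Those of Jag1 were 1.11, 3.30 and 1.79, so Dll1 had the higher mean in hepatoblasts and the shares hold among these 3 ligands only. Of the counts per kilobase of Jag1, Jag2 and Dll4, Jag1 made up 68.8% ± 12.9 in hepatoblasts, 94.2% ± 1.30 in Diff. and 68.9% ± 8.32 in mature hepatocytes. Dll4 made up 19.8% ± 12.4 in hepatoblasts, 1.35% ± 0.75 in Diff. and 30.1% ± 7.70 in mature hepatocytes. The share of Jag2 was 11.5% ± 1.23, 4.42% ± 0.88 and 0.961% ± 0.90. All 3 shares in Diff. hepatocytes differed without overlap from hepatoblasts and from mature hepatocytes, with an adjusted p of 0.0367 each over 9 exact permutation tests, as did Jag2 between mature hepatocytes and hepatoblasts. The shares of a library add up to the whole, so they are not separate results. The level of Jag2 itself was not called in Diff. hepatocytes against hepatoblasts (log2 fold change -0.36, edgeR adjusted p = 0.448). Jag1 and Dll4 shares overlapped between mature hepatocytes and hepatoblasts, with exact permutation adjusted p of 1.0 and 0.257. Within hepatoblasts, Dll4 ran from 34.5% in replicate 1 to 8.88% in replicate 4.

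**Figure D4:**
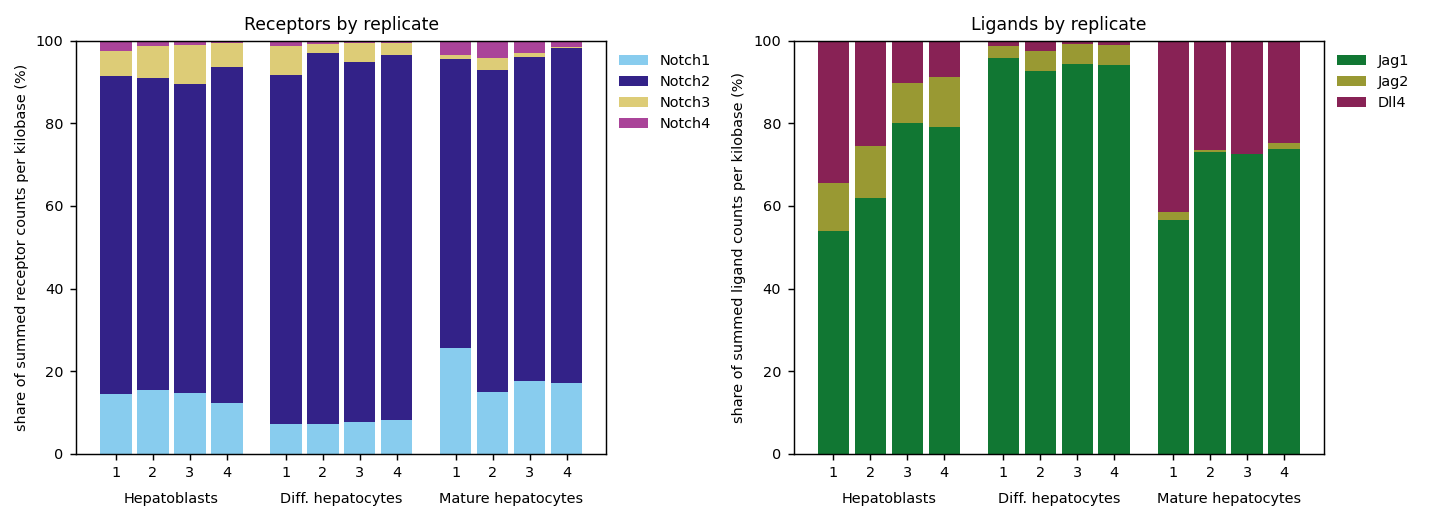
Share of each receptor (left) in the summed counts per kilobase of the receptors, and of Jag1, Jag2 and Dll4 (right) in their own sum without Dll1. Values are in percent, with 1 bar per library and replicates 1 to 4 in each of the 3 groups. Notch2 fills 69.97% to 89.8% of every receptor bar, and Jag1 fills 92.6% to 95.7% of the 4 Diff. bars.

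A further 48 genes of the pathway, from other ligands to nuclear cofactors, were listed, and 41 were tested. Against hepatoblasts 5 were called as higher and 7 as lower in Diff. hepatocytes, beside 14.9% and 14.0% of all tested genes, and 6 as higher and 9 as lower in mature hepatocytes, beside 20.1% and 24.7%. In Diff. against mature hepatocytes 7 were called as higher and 5 as lower, beside 20.2% and 15.6%. The shares called in either direction among the 41 were near or under those of all genes in the comparisons with hepatoblasts. With library totals these counts were 4 and 10, 3 and 20, and 10 and 2, in the same order of comparisons. Of all 17779 tested genes, 5606, 9927 and 7276 were then called in either direction. The median log2 fold change of the 41 was -0.02, -0.31 and -0.05 in these comparisons, beside -0.01, -0.15 and 0.09 for all tested genes. 
Of the other ligands, Dll1 was not called, with means of 6.65 CPM in hepatoblasts, 3.87 CPM in Diff. and 4.13 CPM in mature hepatocytes (edgeR adjusted p = 0.00859 for Diff. hepatocytes and 0.0146 for mature hepatocytes against hepatoblasts). Dlk1, a Delta-like protein without the domain that binds Notch in the canonical ligands, had 3523 CPM in hepatoblasts and fell to 94.2 CPM in Diff. and 4.19 CPM in mature hepatocytes. Hepatoblasts were isolated by Dlk1, so its fall is no independent measure of them.

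Enzymes that act on ligands and receptors before signalling moved in different directions. Neurl1a, which ubiquitinates ligands, rose from 1.52 CPM in hepatoblasts and reached 8.38 CPM in Diff. hepatocytes and stood at 0.373 CPM in mature hepatocytes (log2 fold change 2.46, edgeR adjusted p = 4.19e-06, and -1.995, edgeR adjusted p = 0.000107, against hepatoblasts). Mib2, another ligand ubiquitin ligase, was called as higher in mature hepatocytes, by 1.71 on the log2 scale (edgeR adjusted p = 9.82e-08), a call lost with library totals. Furin, the convertase that cuts the receptor during its passage to the surface, was higher in both, with means of 152.4 CPM in hepatoblasts, 420.3 CPM in Diff. and 497.1 CPM in mature hepatocytes, where the call is lost with library totals. Among the glycosyltransferases of the Fringe family, which tune the response of a receptor to Delta-like or Jagged ligands, Mfng was called as lower in Diff. hepatocytes than in hepatoblasts (0.213 CPM and 1.18 CPM, edgeR adjusted p = 0.00966), a call lost in each fit without 1 of several libraries, hepatoblast replicate 1 among them. Lfng was not called in any comparison, with means of 2.92, 1.22 and 2.15 CPM in hepatoblasts, Diff. and mature hepatocytes. Rfng had means of 10.9, 7.41 and 18.8 CPM in that order and was called as lower in Diff. than in mature hepatocytes, but not with library totals.

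Of the cleaving enzymes, Adam17 was lower in both kinds of hepatocyte, with 59.2 CPM in hepatoblasts, 29.3 CPM in Diff. and 28.3 CPM in mature hepatocytes, and the call in Diff. hepatocytes is lost without hepatoblast replicate 4 or without Diff. replicate 2, 3 or 4. Adam10, the protease that cuts the ligand-bound receptor, was called as lower in mature hepatocytes than in hepatoblasts (log2 fold change -1.36, edgeR adjusted p = 5.13e-06) and stood at -0.65 in Diff. hepatocytes (edgeR adjusted p = 0.00323). All 7 listed γ-secretase genes were tested, and in mature hepatocytes 1 of them was called against hepatoblasts. This was Psen2, a catalytic subunit, with 29.4 CPM in hepatoblasts, 40.2 CPM in Diff. and 206.1 CPM in mature hepatocytes (log2 fold change 2.81, edgeR adjusted p = 3.67e-08). Aph1c, a further subunit, was called as higher in Diff. than in mature hepatocytes, by 1.84 on the log2 scale (edgeR adjusted p = 0.00121).

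In the nucleus, Rbpj was not called in any comparison, with means of 11.5 CPM in hepatoblasts, 13.2 CPM in Diff. and 8.75 CPM in mature hepatocytes. The Mastermind coactivators differed from each other. Maml3 fell in both hepatocyte groups, from 18.0 CPM to 4.19 CPM in Diff. and 4.70 CPM in mature hepatocytes, while Maml2 rose in Diff. hepatocytes from 1.39 to 4.09 CPM. Kat2b, a histone acetyltransferase recruited to the complex, stood at 28.1, 59.2 and 121.8 CPM in hepatoblasts, Diff. and mature hepatocytes and was called in each of the 3 comparisons, though with library totals in that of mature hepatocytes with hepatoblasts alone.

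Nrarp, a Notch target that feeds back on the pathway by destabilising the intracellular domain, fell as the 3 target genes did. It had 1.23, 0.836, 1.65 and 1.26 CPM in the hepatoblast libraries, 0.173, 0.0431, 0 and 0.0493 CPM in Diff. hepatocytes, where the 0 allows up to 3 reads, and 0.274, 0.128, 0.117 and 0.124 CPM in mature hepatocytes. All hepatoblast libraries lie above all others. The log2 fold change of Nrarp against hepatoblasts was -4.10 ± 0.52 in Diff. hepatocytes (edgeR adjusted p = 1.66e-05) and -2.93 ± 0.49 in mature hepatocytes (edgeR adjusted p = 0.000106). Numb, an inhibitor of the receptors, was not called in any comparison, with means of 49.96, 32.8 and 55.5 CPM in hepatoblasts, Diff. and mature hepatocytes. Numbl, its homologue, was called as lower in mature hepatocytes (9.11 CPM in hepatoblasts, 15.2 CPM in Diff. and 0.791 CPM in mature hepatocytes). Dtx2 and Dtx3, members of the Deltex family of ubiquitin ligases, were called as lower in Diff. hepatocytes, by log2 fold changes of -1.10 and -1.04, and Dtx3 was lower in mature hepatocytes too, at -3.13. The call of Dtx3 in Diff. hepatocytes is lost without any 1 of the 8 libraries compared.

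Hes6, a member of the HES family that antagonises Hes1, had the reverse pattern of the 3 target genes in mature hepatocytes. Its libraries stood at 12.0, 11.6, 14.0 and 14.6 CPM in hepatoblasts and at 15.4, 14.51, 15.4 and 14.8 CPM in Diff. hepatocytes. Mature hepatocytes had 116.5, 210.8, 199.3 and 202.6 CPM of Hes6, each far above all other libraries. The log2 fold change of Hes6 was 3.81 ± 0.17 in mature hepatocytes against hepatoblasts (edgeR adjusted p = 4.31e-10) and 0.21 ± 0.16 in Diff. hepatocytes (edgeR adjusted p = 0.284).

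**Figure D5:**
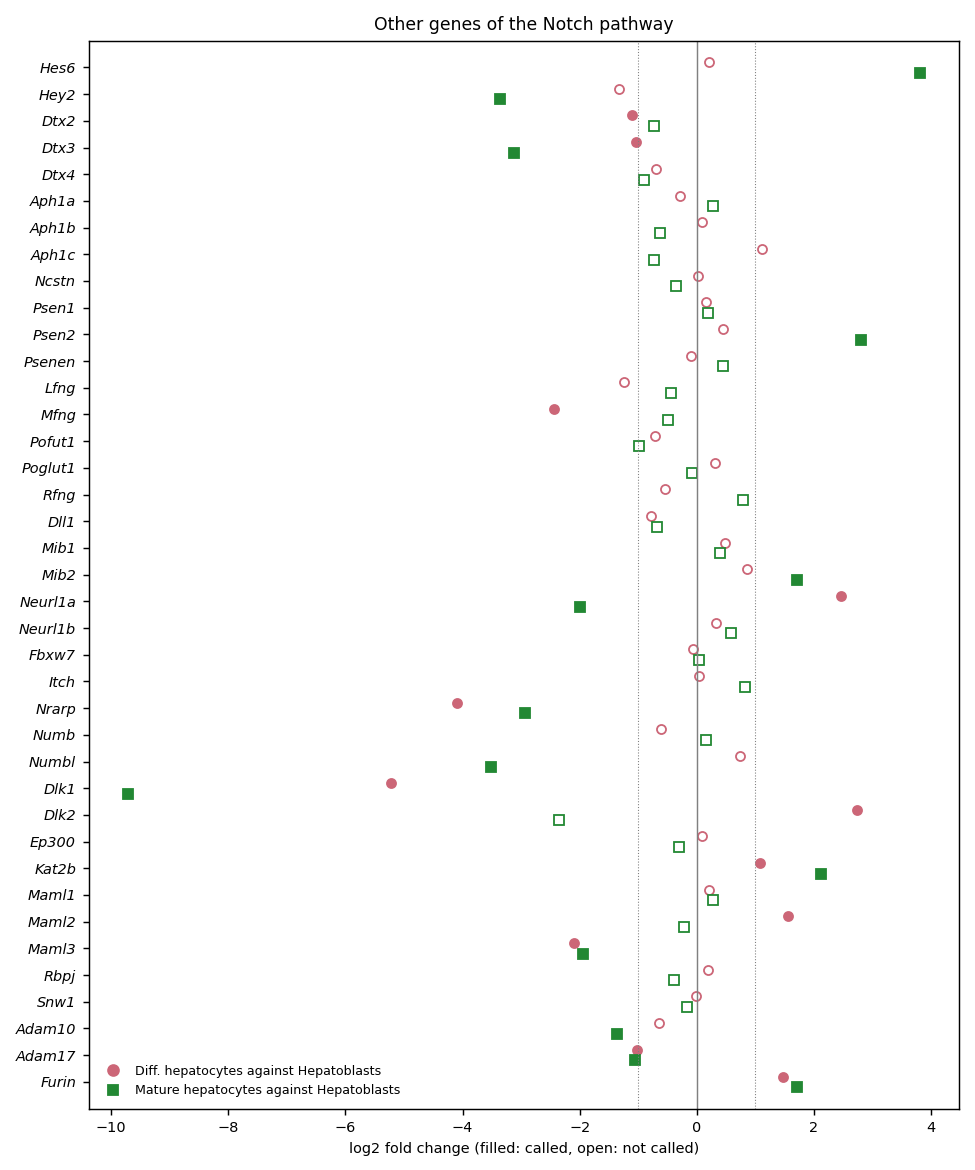
Log2 fold change of tested genes of the wider pathway against hepatoblasts in Diff. hepatocytes (circles) and in mature hepatocytes (squares), with filled symbols for called genes, grouped by role. Nrarp, Maml3 and Adam17 are filled on the left in both, Hes6 and Psen2 are filled on the right in mature hepatocytes alone.

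The genes whose log2 CPM followed each member most closely over the 12 libraries were sought among 13153 tested genes with a mean of at least 1 CPM, by Pearson's r. The 12 libraries form 3 groups and share their scaling, so a high r mostly reflects the order of the group means and is given as a description. For Dll4 these genes were Oit3 (r = 0.989), Adgrl4 (r = 0.982) and Kdr (r = 0.981), and those for Notch4 included Ctsc (r = 0.960) and She (r = 0.956). Jag1 was followed by Tinagl1 (r = 0.944), Timp3 (r = 0.940) and Rtn4 (r = 0.939), and Notch3 by Cdon (r = 0.971), Gnb4 (r = 0.968) and Map3k12 (r = 0.964). Closest to Hes1 were Fkbp4 (r = 0.976), Tgm2 (r = 0.974) and Pomt1 (r = 0.972), to Heyl Nodal (r = 0.983), Gimd1 (r = 0.982) and Ntpcr (r = 0.981), and to Hey1 Wdr70 (r = 0.968), Mogat2 (r = 0.962) and Chtf18 (r = 0.961). For Jag2 they were Wt1 (r = 0.957), Sema4b (r = 0.955) and Acot2 (r = 0.948), and those for Notch1 included Elp4 (r = 0.960) and Psmd3 (r = 0.960). Notch2 had the weakest companions after the first, Ttc30a1 (r = 0.928), with Heatr5b (r = 0.847) and Atp6ap2 (r = 0.83).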

How the data were processed

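RNA of 12 libraries was analysed, with 4 replicates each of hepatoblasts, Diff. hepatocytes and mature hepatocytes, grouped by their labels. Libraries were made from poly(A) RNA and read as single reads. The values deposited by the authors are raw counts per gene without normalization. Per the labels and the methods of the study, reads were checked with FastQC 0.11.2, mapped to GRCm38 with STAR 2.5.2b and assigned to the gene models of Ensembl release 92, and Picard 2.10.2 and DESeq2 1.22.2 were used. The strand setting of the counting and the treatment of duplicate reads are not given in the sources used here, so reads of genes that overlap a Notch gene may not be separated, although no overlapping gene had more than 43 counts in a library.

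Symbols, positions and exon lengths came from GENCODE M21, in which 53620 of the 53715 identifiers were found. Counts on genes per library were 21523329 to 25216977 in hepatoblasts, 19581551 to 22026087 in Diff. and 20043218 to 23791477 in mature hepatocytes. The test took every gene that exceeded 10 counts in at least 1 library and was run in R 4.3.3 with edgeR 4.0.16 (TMM, quasi-likelihood test, group as the only term, 12 libraries). Calls required a Benjamini-Hochberg adjusted p (over all tested genes) under 0.01 and a log2 fold change over 1 in size. Log2 CPM for the likeness used a prior count of 2. Counting intervals are exact at 95%, cover counting error only, and a count of 0 allows up to 3 counts. Single values and shares were compared by a two-sided exact permutation test over 70 assignments, whose smallest p is 0.0286. The sources call the replicates biological and name no batch.

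The members and the lists of other pathway genes and of cell type markers were chosen with earlier results of these data known. Of the other pathway genes, the text names the 5 called with the largest fold in each direction and comparison among those with a mean of at least 2 CPM, and in addition Dll1, Dlk1, Lfng, Mfng, Rfng, Rbpj, Numb and Nrarp. Some genes that these rules select are not reported here. The fit was tested on simulated data. The alternatives were DESeq2 1.42.0, DESeq2 size factors in edgeR, glmTreat, library totals, other filters, fits of 8 libraries, a replicate block, leaving out each library, and an adjusted p under 0.05 with no demand on the fold. The fit without replicate 1 of both hepatoblasts and Diff. hepatocytes was added after seeing the data.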

Additional observations from a re-analysis of the deposited data

Results flagged for a closer look

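In groups of 4 libraries, the highest or lowest value was set against the range of its group, and 5 of 45 groups examined had a library farther from the others than Dixon's 95% limit, where chance gives about 1 in 20, or 2.25. Jag1 was at 32.2 CPM in Diff. hepatocytes replicate 1, against 14.45 to 15.5 CPM in the other 3, and Jag2 was at 1.25 CPM in the same library. Bile duct and mesenchymal marker sums were also highest in that library. Jag1 stood at 8.48 CPM in hepatoblast replicate 3, above the other 3 hepatoblast libraries. In hepatoblast replicate 1 the summed macrophage markers were at 260.1 CPM and the summed erythroid markers at 1217 CPM, and this was the library with the least Hes1 and the most Dll4 and Notch4 of its group. Jag1 remained called as higher in Diff. hepatocytes without Diff. replicate 1.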

How the results depend on the processing

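With DESeq2's Wald test and with DESeq2 size factors in edgeR, the 10 genes gave the same calls in the 3 comparisons (30 of 30 values). With library totals the log2 fold change turned for Notch2 in Diff. hepatocytes against hepatoblasts (-0.125) and for Notch1 (-0.58) and Jag1 (-0.16) in mature hepatocytes against hepatoblasts, and 23 instead of 15 other pathway genes were called in the latter comparison, 3 higher and 20 lower. Calls over all 17779 tested genes rose there as well, from 7971 to 9927. With the fold change inside the test (glmTreat) 6 instead of 12 other pathway genes were called in Diff. hepatocytes against hepatoblasts, and 3 instead of 7 Notch genes in Diff. against mature hepatocytes, with Notch1, Notch3, Notch4 and Hes1 lost. Over all 17779 tested genes, glmTreat called 2966 instead of 5145 in the former comparison and 4221 instead of 6362 in the latter. A filter of at least 10 counts in every library tests only 5 of the Notch genes, of which 2, 1 and 3 were called in Diff. against hepatoblasts, mature against hepatoblasts and Diff. against mature hepatocytes, and other pathway calls fell to 7 in the first and 6 in the last. That filter left 11090 tested genes, of which 2634, 4379 and 3107 were called in the 3 comparisons. At an adjusted p under 0.05 without a fold threshold, 25, 29 and 26 other pathway genes were called, and 8 Notch genes in mature hepatocytes against hepatoblasts, where 10615, 12870 and 11580 of all 17779 genes were called in the 3 comparisons.

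Leaving out 1 library gave 5 to 5, 5 to 7 and 6 to 7 called Notch genes and 9 to 12, 15 to 18 and 11 to 13 other pathway genes in the 3 comparisons. Among all 17532 to 17752 genes tested in these fits, 4704 to 5170, 7621 to 7967 and 6027 to 6532 were called. In mature hepatocytes against hepatoblasts the log2 fold change of Notch2 ran from -0.28 to 0.0067, its share difference from -1.64 to 2.07 percentage points and that of the Jag1 share from -4.77 to 4.34, so no direction holds for these, and 1 to 2 receptor shares did not overlap. Without replicate 1 of both hepatoblasts and Diff. hepatocytes, a fit added after seeing the data, 5, 7 and 7 Notch genes were called, and the calls of Mfng and Dtx3 in Diff. hepatocytes against hepatoblasts and of Kat2b in Diff. against mature hepatocytes were lost. Of the 17412 genes tested in that fit, 5065, 7926 and 6252 were called. Replicate numbers were not taken to pair the libraries, since the deviations of same-numbered libraries did not all correlate above 0.1. Between Diff. hepatocytes and hepatoblasts r was 0.324, -0.0589, 0.246 and 0.184 for numbers 1 to 4, a hint from the data for 3 of them, and with mature hepatocytes it ran from -0.0813 to 0.0923. With the replicate block 5, 7 and 7 Notch genes were called, Notch4 (1.19) and Dll4 (1.43) being added in mature hepatocytes against hepatoblasts. Of all 17779 tested genes, 5220, 7988 and 6359 were called with the block. Heyl, Hey1 and Dll4 in Diff. hepatocytes and Heyl, Jag2 and Hey1 in mature hepatocytes had under about 10 reads in several libraries. These values are limited by depth.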
